A study of Homo sapiens with 12 samples.

Results

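A set of 9 genes was followed in HCC70, a line derived from a human breast carcinoma of the basal-like, triple-negative kind. The set held genes of inhibitors that act on the epidermal growth factor receptor (EGFR) itself or its endocytosis, and PHLDA1. The 9 genes were chosen by symbol, with earlier results of these data known. They are ERRFI1, PHLDA1, LRIG1, LRIG3, CBL, CBLB, CBLC, SOCS4 and SOCS5, which are 9 of the 26365 genes in the deposited table. The shLAD1 cells stably carried an shRNA against LAD1, the gene of ladinin-1, and the scramble cells stably carried a scrambled shRNA. Both were deprived of serum overnight and then exposed to 50 ng/ml of EGF for 0, 40 or 240 min, which gave 6 groups of 2 libraries each and 12 libraries of poly-A RNA. The series asks, per its title, how LAD1, a filamin-binding protein, takes part in the cells' answer to EGF. A single shRNA against LAD1 is named in the labels, so loss of LAD1 and any other effect of that shRNA cannot be told apart. No library without EGF is labelled for 40 or 240 min, so EGF and the time or handling since 0 min cannot be told apart either.

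EGF makes its receptor pair up, and one kinase domain then activates its neighbour by direct contact. Cells end that signal in several ways: they block the contact between the kinase domains, tag the receptor with ubiquitin so that it is sorted to the lysosome, or lower its level at the surface. ERRFI1 (also called MIG6 or RALT) works in the first way. CBL, CBLB and CBLC are ubiquitin ligases of the second kind. LRIG1 is a transmembrane protein that binds receptors of the EGFR family and brings CBL to them, and LRIG3 is its relative. SOCS4 and SOCS5 are adaptors with an SH2 domain and a SOCS box, the part that recruits a ubiquitin ligase. PHLDA1 is a small intracellular protein with a pleckstrin homology-like domain whose gene answers to growth factors in many cells.

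The DNA before the gene starts is shown for the member with the fastest response and for the members where a searched motif was found next to a principal start. RefSeq promoter windows (GRCh38.p14) were matched for 6 of the 9 members, 14 windows in all. The 250 bases before each start were searched on both strands for 5 motifs: the CArG box, the AP-1 letters TGANTCA, the cyclic AMP response letters TGACGTCA, the EGR letters GCGNGGGCG and the FOXO letters GTAAACA. The window of ERRFI1, chr1:8026310-8026559 on the minus strand, held none of the 5, so no base of it is in capitals:
ERRFI1: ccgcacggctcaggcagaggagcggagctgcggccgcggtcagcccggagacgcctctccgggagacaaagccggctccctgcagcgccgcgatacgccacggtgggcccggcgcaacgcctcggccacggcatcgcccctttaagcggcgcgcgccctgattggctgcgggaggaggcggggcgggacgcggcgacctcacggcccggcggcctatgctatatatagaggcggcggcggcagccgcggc
The EGR letters, in capitals, were found 57 to 49 bases before a start of CBLB (chr3:105869051-105869079, minus strand) and 121 to 113 bases before the start of SOCS4 (chr14:55027105-55027133, plus strand), each as the reverse complement, each shown with its flanking bases and each in a window that overlaps exons of other annotated transcripts of its gene:
CBLB: cgcccggcccCGCCCCCGCcccgccccgc
SOCS4: tgcgccgaccCGCCCACGCccagcgcagg
Across 35116 such windows of all genes, 8.41% held the EGR letters, 6.57% the AP-1 letters, 2.98% the FOXO letters, 1.65% the cyclic AMP response letters and 1.16% a CArG box. A window of LRIG1 that begins at an alternative start inside the gene held the AP-1 letters at 2 places, and the windows of LRIG3 and PHLDA1 held none of the motifs. These matches describe letters only.

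The values are normalized counts, that is, reads divided by a size factor per library, and the libraries held 12428618 to 16721013 reads. Every member was well covered, with at least 122 reads in every library, and all 9 passed the filter on low values. Counting error alone was at most 9.05% of a member's value, the highest share being that of LRIG3. Markers matched the label of the cells: KRT5 ran from 39623 to 78195 normalized counts and CDH1 from 8949 to 13776, whereas PTPRC, CD3E, COL1A2 and PDGFRB did not exceed 3.08. TP63 was low, at 15.4 to 34.5, ESR1 ran from 18.0 to 28.98 and PGR from 0 to 1.03, while ERBB2 ran from 1519.7 to 2566. VIM (222 to 1186), COL1A1 (243 to 895) and CD68 (741 to 1577), also read as markers of other cell types, were present in all 12 libraries. Their part in the results was not tested. In bulk RNA a lower value can come from fewer cells that make a transcript or from less of it per cell, and these cannot be told apart.

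The targeted gene and the receptor were read first. LAD1 had 1091 and 865 normalized counts in shLAD1 cells at 0 min, against 5925 and 6406 in scramble cells. It had 2535 and 2297 in shLAD1 cells at 240 min, against 9102 and 10194 in scramble cells. LAD1 was thus low in every shLAD1 library, at 0.159 of the scramble mean at 0 min and 0.25 at 240 min. EGFR itself did not differ between shLAD1 and scramble cells beyond the spread at any time (log2 difference averaged over times −0.11 ± 0.11, adjusted p = 0.534). At 240 min of EGF it had 4213 and 4658 normalized counts in shLAD1 cells, against 2209.7 and 3222 at 0 min, and 4251 and 4662 in scramble cells, against 2792 and 3117 at 0 min. The rise passed the test in shLAD1 cells (log2 fold change 0.73 ± 0.20, adjusted p = 0.0336) and missed it in scramble cells (0.59 ± 0.20, adjusted p = 0.0663), where it passed with the replicate number as a block (adjusted p = 0.00245) and without any 1 of the shLAD1 libraries of 0 or 40 min (0.0292 to 0.0395). The shLAD1 call was lost when any 1 of 9 libraries was left out (adjusted p 0.0501 to 0.152; kept only without either shLAD1 40 min library or shLAD1 0 min replicate 2).

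**Figure D1:**
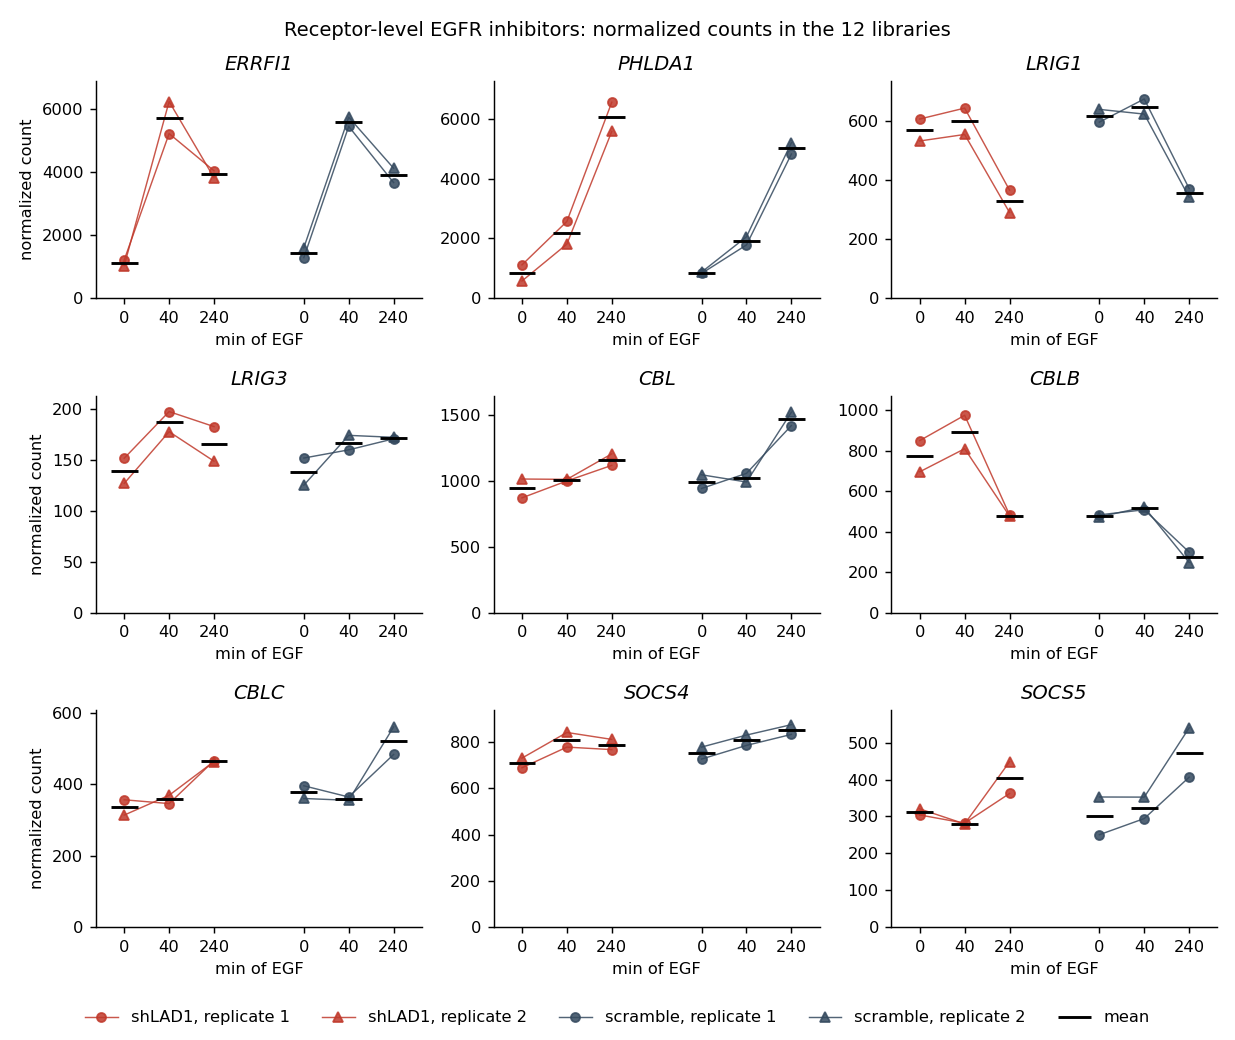
Normalized counts (y axis, linear, from 0) of the 9 genes against minutes of EGF (x axis), with shLAD1 libraries in red and scramble libraries in blue. Circles and triangles are replicates 1 and 2, lines join libraries of the same number, and black bars are means of 2 libraries; ERRFI1 peaks at 40 min, PHLDA1 is highest at 240 min, LRIG1 and CBLB are lowest at 240 min, and CBLB is higher in shLAD1 cells at each time.

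At 40 min of EGF limma called 1 member, ERRFI1, and at 240 min most of them; PHLDA1 at 40 min was called by some other fits. A gene was called when its adjusted p in the limma-trend fit over 13950 genes was under 0.05. At 40 min against 0 min, 1 of the 9 members was called in shLAD1 cells, against 1.04% of all genes tested, and 1 of 9 in scramble cells, against 0.853%. At 240 min against 0 min, 3 members were higher and 2 lower in shLAD1 cells, where 10.8% of all genes were higher and 7.76% lower. In scramble cells 5 were higher and 2 lower, against 11.7% and 8.44% of all genes. The median log2 fold change of the 9 members at 240 min was 0.30 in shLAD1 cells and 0.46 in scramble cells, against medians of −0.01 and −0.02 over all genes tested. At 240 against 40 min, 2 members were higher and 3 lower in shLAD1 cells, against 8.84% and 7.56% of all genes. In scramble cells 3 were higher and 3 lower, against 10.2% and 8.34%. Over all genes the split of calls depended on scaling: with total-count scaling 1016 were higher and 1919 lower at 240 against 0 min in shLAD1 cells, in place of 1502 and 1083, and 1141 higher and 2205 lower in scramble cells, in place of 1635 and 1178. At 240 against 40 min it gave 918 higher and 1450 lower in shLAD1 cells, in place of 1233 and 1055, and 1054 higher and 1708 lower in scramble cells, in place of 1417 and 1163.

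ERRFI1 rose within 40 min and then came partly down. In shLAD1 cells it had 1204 and 1028 normalized counts at 0 min, 5219.9 and 6239 at 40 min, and 4039 and 3819 at 240 min. In scramble cells it had 1280.5 and 1594 at 0 min, 5449 and 5741 at 40 min, and 3664 and 4121 at 240 min. The 3 times did not overlap in either kind of cell, and the rise was seen in all 4 sets of libraries that share an shRNA and a replicate number. At 40 min the mean was 5.13 times that at 0 min in shLAD1 cells (log2 fold change 2.36 ± 0.13, adjusted p = 2.06e-05) and 3.89 times in scramble cells (1.97 ± 0.13, adjusted p = 0.00011). At 240 min it was still 3.52 times the 0 min mean in shLAD1 cells (1.82 ± 0.13, adjusted p = 7.72e-05) and 2.71 times in scramble cells (1.44 ± 0.13, adjusted p = 0.000221).

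The step down of ERRFI1 between 40 and 240 min was of nearly the same size in both kinds of cell. Its log2 fold change was −0.54 ± 0.13 in shLAD1 cells and −0.53 ± 0.13 in scramble cells, with an adjusted p of 0.0221 in each. This call rested on single libraries: without shLAD1 40 min replicate 2, shLAD1 240 min replicate 1 or shLAD1 240 min replicate 2 the shLAD1 call was lost, and without any 1 of the scramble 40 or 240 min libraries the scramble call was lost (adjusted p 0.0601 to 0.131 in both cases). Every one of the 4 sets was lower at 240 min than at 40 min, by 0.37 to 0.71 on the log2 scale.

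PHLDA1 climbed through the whole time course and had the largest change of the 9 members at 240 min. In shLAD1 cells it had 1110.0 and 569.9 normalized counts at 0 min, 2568 and 1807 at 40 min, and 6567 and 5587 at 240 min. In scramble cells it had 824 and 868 at 0 min, 1779 and 2054 at 40 min, and 4829 and 5208 at 240 min. The times did not overlap in either kind of cell, but the pair of shLAD1 libraries at 0 min lay far apart, one above and one below both scramble libraries. At 240 min the mean was 7.23 times that at 0 min in shLAD1 cells (2.93 ± 0.28, adjusted p = 0.000526) and 5.93 times in scramble cells (2.57 ± 0.28, adjusted p = 0.000717). Between 40 and 240 min alone it rose by 1.49 ± 0.28 on the log2 scale in shLAD1 cells (adjusted p = 0.0103) and by 1.39 ± 0.28 in scramble cells (adjusted p = 0.012). That later rise lost its call in shLAD1 cells without shLAD1 40 min replicate 2 or shLAD1 240 min replicate 1 (adjusted p 0.0557 to 0.0659), and in scramble cells without either scramble 40 min library or scramble 240 min replicate 2 (0.0512 to 0.0755).

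Whether PHLDA1 had changed by 40 min depended on the fit, and most fits did not call it. Of 23 alternatives 3 called it in shLAD1 cells and 5 in scramble cells. With the replicate number as a block, limma gave an adjusted p of 0.0945 in shLAD1 cells and 0.23 in scramble cells. The limma log2 fold change was 1.44 ± 0.28 in shLAD1 cells (adjusted p = 0.0747) and 1.18 ± 0.28 in scramble cells (adjusted p = 0.225), so neither was called, although all 4 sets of libraries were higher, by 1.11 to 1.66. With a block for the replicate number within each shRNA the adjusted p was 0.021 in shLAD1 cells and 0.0477 in scramble cells. DESeq2 on the recovered reads gave 1.6e-05 and 0.000654. Without shLAD1 0 min replicate 1 the limma adjusted p was 0.00367 in shLAD1 cells, and without either shLAD1 0 min library it was 0.0161 to 0.0162 in scramble cells. The distance between those 2 libraries is part of the spread that the groups share for this gene.

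**Figure D2:**
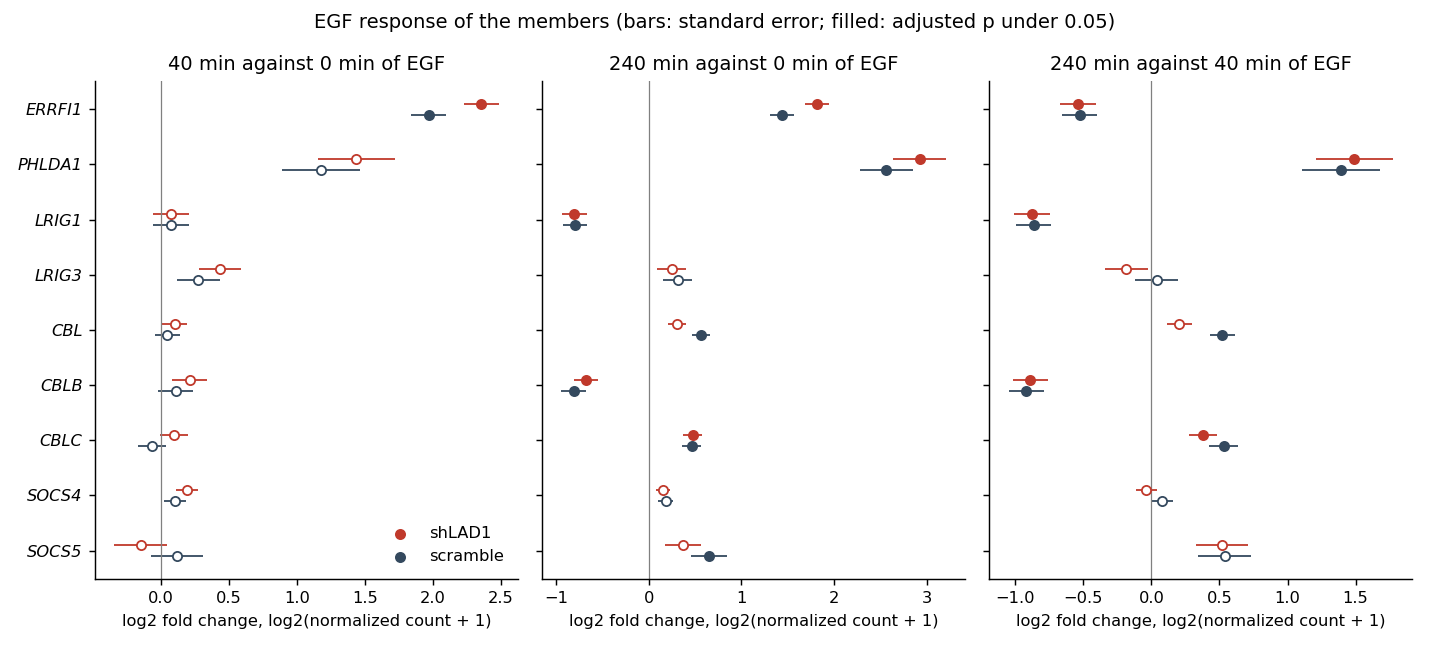
Log2 fold changes (x axis, log2(normalized count + 1) scale) of the 9 genes (y axis) at 40 against 0 min, 240 against 0 min and 240 against 40 min of EGF, shLAD1 cells in red above scramble cells in blue. Points are limma estimates from 2 libraries per group, bars are standard errors and filled points have an adjusted p under 0.05; ERRFI1 is the filled gene at 40 min, whereas LRIG1 and CBLB lie left of 0 at 240 min in both kinds of cell.

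LRIG1 fell late, and by nearly the same amount with and without the LAD1 shRNA. In shLAD1 cells it had 608 and 533 normalized counts at 0 min, 645 and 555 at 40 min, and 366 and 290.2 at 240 min. In scramble cells it had 597 and 641 at 0 min, 676 and 625 at 40 min, and 371 and 342 at 240 min. All 4 libraries at 240 min lay below all 8 earlier ones. The log2 fold change at 240 against 0 min was −0.80 ± 0.13 in shLAD1 cells (adjusted p = 0.00352) and −0.79 ± 0.13 in scramble cells (adjusted p = 0.0033), which left 0.575 of the 0 min mean in shLAD1 cells and 0.576 in scramble cells. At 40 min its log2 fold change was 0.07 ± 0.13 in each kind of cell, and the fall between 40 and 240 min was −0.87 ± 0.13 in shLAD1 cells (adjusted p = 0.00275) and −0.86 ± 0.13 in scramble cells (0.00243). With limma on the compared groups alone neither shLAD1 fall was called (adjusted p 0.0781 at 240 against 0 min and 0.079 at 240 against 40 min). LRIG1 shares 907 exon bases, counted over all annotated transcripts, with SLC25A26 on the other strand (GENCODE v29). Whether strand was used in counting is not given in the sources used here. SLC25A26 itself had 134 to 182 normalized counts and was called in none of the 12 comparisons. Other members share exon bases with annotated genes too. PHLDA1 shares 553 with AC011611.3 and 779 with AC011611.4, and ERRFI1 155 with AL034417.4, all antisense genes on the other strand. SOCS5 shares 160 with LINC01118 on the same strand, which did not exceed 2.07 normalized counts. The part of the antisense genes in the values was not tested.

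LRIG3, the relative of LRIG1, had no called change at either time. In shLAD1 cells it had 152 and 127 normalized counts at 0 min, 198 and 178 at 40 min, and 183 and 149 at 240 min. In scramble cells it had 152 and 125 at 0 min, 160.2 and 175 at 40 min, and 171 and 173 at 240 min. The libraries at 40 min lay above those at 0 min in both kinds of cell, but no change passed the test. The largest log2 fold change was 0.43 ± 0.16 at 40 min in shLAD1 cells (adjusted p = 0.663). The block within each shRNA gave an adjusted p of 0.044 for that value and 0.0403 for the 0.31 ± 0.12 at 240 min in scramble cells. Of 23 alternatives it was the only 1 that called either value.

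The 3 CBL genes, which encode ubiquitin ligases of the same family, moved in different directions at 240 min: CBLB was lower, CBLC higher, and CBL higher in scramble cells. CBLB had 849 and 695 normalized counts at 0 min, 974 and 809 at 40 min, and 482 and 476 at 240 min in shLAD1 cells. It had 482 and 473 at 0 min, 508 and 520.2 at 40 min, and 298 and 247 at 240 min in scramble cells. Within each kind of cell the 240 min libraries lay below all others. The log2 fold change at 240 against 0 min was −0.68 ± 0.13 in shLAD1 cells (adjusted p = 0.00747) and −0.81 ± 0.13 in scramble cells (adjusted p = 0.0028). The 240 min mean was 0.62 of the 0 min mean in shLAD1 cells and 0.571 in scramble cells. At 40 min the log2 fold change was 0.21 ± 0.13 in shLAD1 cells and 0.11 ± 0.13 in scramble cells, with an adjusted p of 1 in each. Between 40 and 240 min it fell by 0.89 ± 0.13 in shLAD1 cells (adjusted p = 0.00249) and by 0.92 ± 0.13 in scramble cells (0.00174). With limma on the compared groups alone neither shLAD1 fall of CBLB was called (adjusted p 0.075 at 240 against 0 min and 0.0577 at 240 against 40 min).

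CBLC, whose expression is mostly confined to epithelia, rose. It had 356 and 313 normalized counts at 0 min, 346 and 369 at 40 min, and 466 and 463 at 240 min in shLAD1 cells. It had 395 and 359.9 at 0 min, 364 and 355 at 40 min, and 483 and 560.0 at 240 min in scramble cells. All 4 libraries at 240 min were above all 8 earlier ones. The log2 fold change at 240 against 0 min was 0.47 ± 0.11 in shLAD1 cells (adjusted p = 0.0143) and 0.46 ± 0.11 in scramble cells (adjusted p = 0.0145). Single libraries decided these calls. In shLAD1 cells the adjusted p was 0.0943 without shLAD1 0 min replicate 2 and 0.0567 to 0.0668 without either shLAD1 240 min library. In scramble cells it was 0.106 without scramble 0 min replicate 2 or without scramble 240 min replicate 2. At 240 against 40 min CBLC was higher by 0.38 ± 0.11 in shLAD1 cells (adjusted p = 0.0388) and by 0.53 ± 0.11 in scramble cells (0.00846). The shLAD1 call was lost without any 1 of the scramble 0 and 40 min or shLAD1 40 and 240 min libraries (0.0532 to 0.155), and the scramble call without scramble 40 min replicate 2 or scramble 240 min replicate 2 (0.0611 to 0.0709). Counting every alternative fit, the shLAD1 call at 240 against 40 min was kept in 11 of 23.

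CBL, the founding member of the family, had 871 and 1014 normalized counts at 0 min, 999 and 1011 at 40 min, and 1117 and 1205 at 240 min in shLAD1 cells. It had 942 and 1046 at 0 min, 1057 and 991 at 40 min, and 1419.5 and 1521 at 240 min in scramble cells. The scramble libraries at 240 min stood above the other 10. The rise at 240 against 0 min passed the test in scramble cells (0.57 ± 0.09, adjusted p = 0.00337) and just missed it in shLAD1 cells (0.30 ± 0.09, adjusted p = 0.053). In shLAD1 cells it passed in 4 of 23 alternatives. Among these were the fit with the replicate number as a block (adjusted p = 0.0127) and that without shLAD1 0 min replicate 2 (log2 fold change 0.41). At 240 against 40 min the log2 fold change was 0.21 ± 0.09 in shLAD1 cells (adjusted p = 0.179; 0.0107 with the block within each shRNA) and 0.52 ± 0.09 in scramble cells (0.00555; 0.0512 without scramble 40 min replicate 2). CBL shares 509 exon bases, counted over all annotated transcripts, with MCAM on the other strand, which had 107 to 355 normalized counts and was called in none of the 12 comparisons.

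At 240 min the log2 fold changes of SOCS4 were small and those of SOCS5 were larger, and 1 change of SOCS5 passed the test. SOCS5 had 304 and 321 normalized counts at 0 min, 282 and 279.8 at 40 min, and 362 and 448 at 240 min in shLAD1 cells. It had 251 and 353 at 0 min, 294 and 352 at 40 min, and 406 and 540.0 at 240 min in scramble cells. The 240 min libraries lay above the 0 min ones in both, and the numbers 1 and 2 of the scramble cells were apart at every time. The log2 fold change at 240 against 0 min was 0.37 ± 0.19 in shLAD1 cells (adjusted p = 0.232) and 0.65 ± 0.19 in scramble cells (adjusted p = 0.042). With the replicate number as a block the adjusted p was 0.044 in shLAD1 cells, where 2 of 23 alternatives called it. Between 240 and 40 min the values were 0.52 ± 0.19 in shLAD1 cells (adjusted p = 0.105) and 0.54 ± 0.19 in scramble cells (0.0875), and the block called the shLAD1 value (0.00965) and the scramble value (0.0073). The scramble call at 240 against 0 min was lost on leaving out any 1 of 8 libraries (0.0551 to 0.255), which were all 4 shLAD1 libraries at 0 and 40 min, both scramble 40 min libraries, scramble 0 min replicate 1 and scramble 240 min replicate 2.

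SOCS4 had 688 and 729.7 normalized counts at 0 min, 777 and 840.3 at 40 min, and 766 and 810.4 at 240 min in shLAD1 cells. It had 726 and 777 at 0 min, 785 and 829 at 40 min, and 832 and 874 at 240 min in scramble cells. The libraries at 40 and 240 min lay above those at 0 min in both kinds of cell, by a small margin. The log2 fold change at 240 against 0 min was 0.15 ± 0.08 in shLAD1 cells (adjusted p = 0.224) and 0.18 ± 0.08 in scramble cells (adjusted p = 0.144). The scramble value was called with the replicate number as a block (adjusted p = 0.0383), and the shLAD1 value with the block within each shRNA (0.0407). Of 23 alternatives 2 called the scramble value and 1 the shLAD1 value.

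Between shLAD1 and scramble cells, CBLB was the 1 member called, and it was higher in shLAD1 cells. At 0 min it had 849 and 695 normalized counts in shLAD1 cells, against 482 and 473 in scramble cells. At 40 min it had 974 and 809 in shLAD1 cells, against 508 and 520.2 in scramble cells. At 240 min it had 482 and 476 in shLAD1 cells, against 298 and 247 in scramble cells. The pairs of libraries did not overlap at any of the 3 times, and the shLAD1 means were 1.62, 1.74 and 1.76 times the scramble means. The log2 difference was 0.68 ± 0.13 at 0 min (adjusted p = 0.0392), 0.79 ± 0.13 at 40 min (adjusted p = 0.0257), 0.82 ± 0.13 at 240 min (adjusted p = 0.0295) and 0.76 ± 0.08 averaged over the times (adjusted p = 0.000468). This was 1 of 9 members in each comparison, against 1.56%, 1.65%, 0.953% and 18.6% of all genes tested at 0, 40 and 240 min and averaged over the times. The authors' deposited table, whose contrast is unnamed but whose values match shLAD1 against scramble at 0 min, gives CBLB a log2 fold change of 0.69 with an adjusted p of 0.00176.

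The CBLB difference rests on 2 sets of libraries per shRNA. With 1 mean per set, an alternative chosen after seeing the data, the averaged log2 difference of 0.76 had an adjusted p of 0.182, and that of LAD1, the targeted gene, at −2.39, one of 0.111. That fit called 0 of the 13950 genes with limma, and 1798 had an unadjusted p under 0.05. The calls at single times were lost on leaving out any 1 of 10 libraries at 0 min (adjusted p 0.0536 to 0.255; all but the shLAD1 40 min libraries), of 6 at 40 min (0.055 to 0.179; both scramble 0 min, scramble 40 min and shLAD1 40 min libraries) and of 8 at 240 min (0.0601 to 0.2; all scramble libraries and both shLAD1 240 min libraries). In those fits the log2 difference stayed between 0.54 and 0.95. edgeR and DESeq2 on the recovered reads called it at each time, whereas limma on the compared groups alone did not (adjusted p 0.188 at 0 min, 0.144 at 40 min and 0.174 at 240 min).

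**Figure D3:**
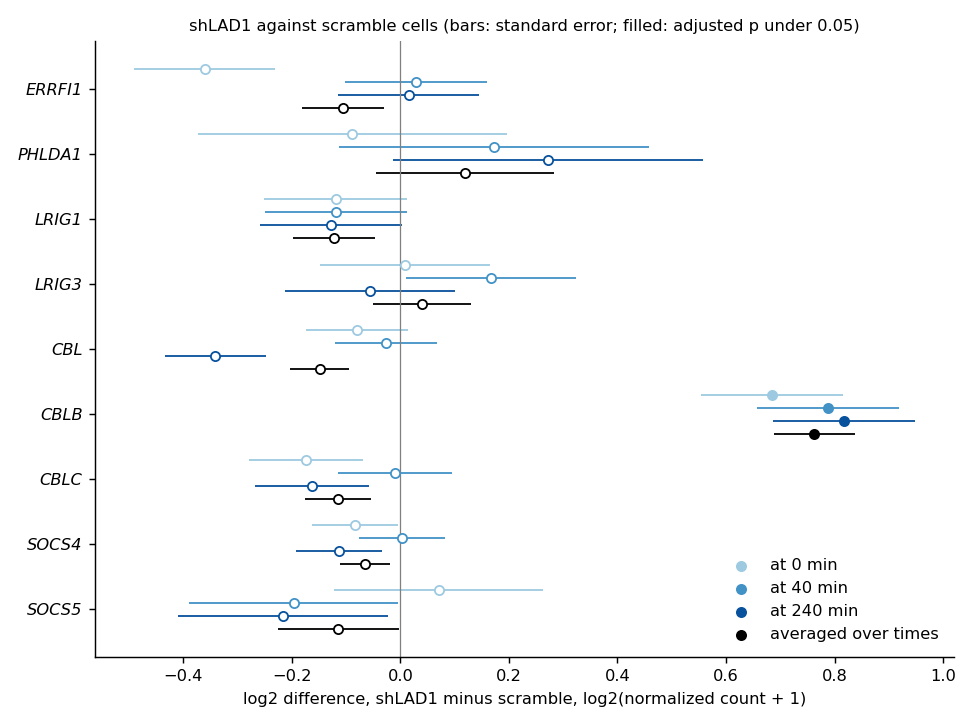
Log2 differences of shLAD1 minus scramble cells (x axis, log2(normalized count + 1) scale) for the 9 genes (y axis) at 0, 40 and 240 min of EGF in blues of rising depth and averaged over the times in black. Points are limma estimates from 2 libraries per group, bars are standard errors and filled points have an adjusted p under 0.05; the CBLB points lie between 0.68 and 0.82 and are the filled ones.

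For the other 8 members no difference between the cells was called, and their averaged log2 differences ran from −0.15 to 0.12. CBL came nearest. At 240 min it had 1117 and 1205 normalized counts in shLAD1 cells, against 1419.5 and 1521 in scramble cells, so that the pairs did not overlap. The log2 difference was −0.34 ± 0.09 at 240 min (adjusted p = 0.138) and −0.15 ± 0.05 averaged over the times (adjusted p = 0.0883). With the replicate number as a block it was called at 240 min (adjusted p = 0.0222) and on average (0.0245), and with 1 mean per set of libraries the average had an adjusted p of 0.501. The averaged value was also called without shLAD1 0 min replicate 2 (0.041). ERRFI1 had 1204 and 1028 normalized counts in shLAD1 cells at 0 min, against 1280.5 and 1594 in scramble cells, and its log2 difference of −0.36 ± 0.13 was not called (adjusted p = 0.217).

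The size of the EGF response was compared between the cells directly. For ERRFI1 the response was larger in shLAD1 cells by 0.39 ± 0.18 on the log2 scale at 40 min (unadjusted p = 0.0632 in the limma fit) and by 0.38 ± 0.18 at 240 min (0.0711). For PHLDA1 the differences were 0.26 ± 0.40 at 40 min and 0.36 ± 0.40 at 240 min. For CBL the 240 min response differed by −0.26 ± 0.13 (unadjusted p = 0.0802). None of the 9 members was called in either comparison, where limma called 0% of the 13950 genes. At an unadjusted p under 0.05 limma found 99 genes at 40 min and 133 at 240 min, and edgeR and DESeq2 also called 0. The block within each shRNA called 11 genes at 40 min and 27 at 240 min, none of them a member. The standard errors of 0.11 to 0.40 log2 units in the main limma fit, which leaves out the pairing by replicate number, limit what that fit could show. With the block within each shRNA they ran from 0.085 for SOCS4 to 0.251 for PHLDA1.

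Levels of different genes can be set side by side only per length. Lengths were the merged exons of those transcripts of a gene that GENCODE v29 tags as basic. Normalized counts per kb of exon were highest for ERRFI1 and lowest for LRIG3 in all 6 groups, except that CBLB was lowest in scramble cells at 240 min. At 0 min ERRFI1 had 268 normalized counts per kb in shLAD1 cells and 345 in scramble cells. CBLC had 209.7 per kb in shLAD1 cells and 236 in scramble cells, and LRIG3 33.3 in shLAD1 cells and 33.1 in scramble cells. At 240 min ERRFI1 had 942 per kb in shLAD1 cells and 933 in scramble cells, and PHLDA1 753 in shLAD1 cells and 622 in scramble cells. CBLB then had 64.9 per kb in shLAD1 cells and 37.0 in scramble cells, and CBL 103 in shLAD1 cells and 131 in scramble cells. PHLDA1 was thus near LRIG1, SOCS4 and CBL at 0 min and second to ERRFI1 at 240 min. Among the CBL genes, CBLC had the most RNA per kb in each group. These lengths count every exon of the transcripts tagged as basic, whichever transcript the cells use.

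**Figure D4:**
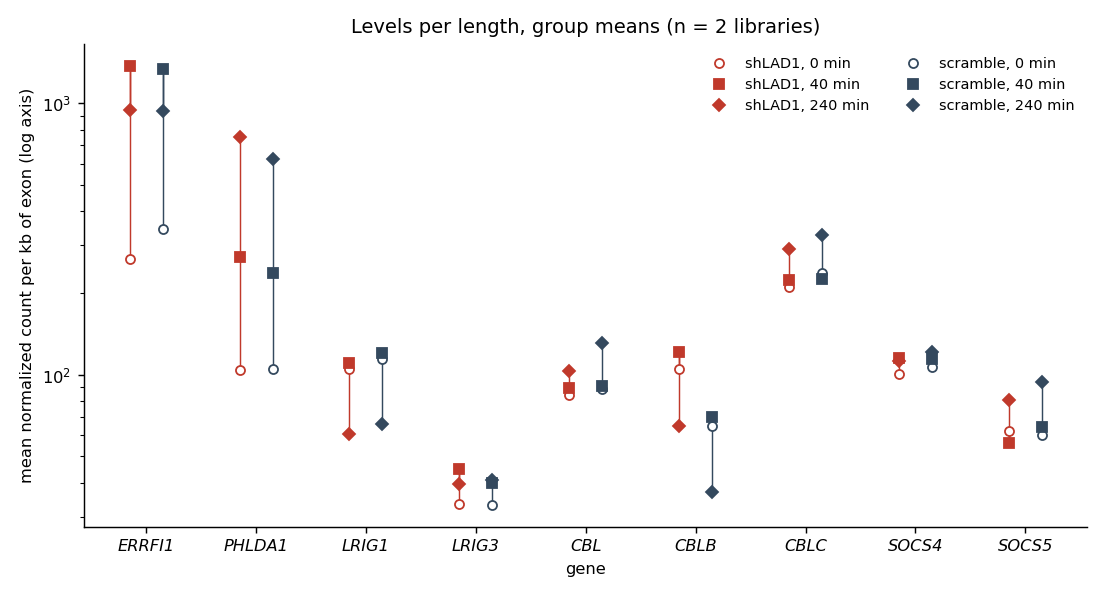
Mean normalized counts per kb of exon (y axis, log axis) of the 9 genes (x axis), shLAD1 cells in red left of scramble cells in blue, with open circles for 0 min, squares for 40 min and diamonds for 240 min of EGF (means of 2 libraries). ERRFI1 spans 268 to 1374 in shLAD1 cells and 345 to 1342 in scramble cells, and LRIG3 lies between 33.1 and 44.9.

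Close relatives of the members that are not known mainly as EGFR inhibitors were read from a list of 10, of which 9 were tested. At 40 min 1 of the 9 had risen in shLAD1 cells and 1 in scramble cells, PHLDA2 each time, a small relative of PHLDA1 (log2 fold change 1.19 ± 0.14, adjusted p = 0.00339, in shLAD1 cells, and 1.10 ± 0.14, adjusted p = 0.00714, in scramble cells). Over all genes 1.04% were called at 40 min in shLAD1 cells and 0.853% in scramble cells. At 240 min 5 of 9 had risen in shLAD1 cells and 5 in scramble cells, and none had fallen. Over all genes 10.8% were then higher in shLAD1 cells and 11.7% in scramble cells. The list's median log2 fold change was 0.87 in shLAD1 cells and 0.77 in scramble cells, against −0.01 over all genes in shLAD1 cells and −0.02 in scramble cells. PHLDA2 stood at 2.01 ± 0.14 in shLAD1 cells and 1.84 ± 0.14 in scramble cells. SOCS6, an adaptor of the same kind as SOCS4 and SOCS5, stood at 0.87 ± 0.10 in shLAD1 cells and 0.77 ± 0.10 in scramble cells. SOCS1, a brake on cytokine receptors, stood at 1.71 ± 0.41 in shLAD1 cells and 1.81 ± 0.41 in scramble cells. On leaving out single libraries the count at 240 min ran from 2 to 5 in each kind of cell.

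Of 24 genes of the machinery that ubiquitinates and internalises EGFR, 23 were tested. None was called at 40 min in either kind of cell. At 240 min 3 were higher and none lower in shLAD1 cells, and 4 were higher and none lower in scramble cells, with list medians of 0.08 in shLAD1 cells and 0.07 in scramble cells. Over all genes 10.8% were higher in shLAD1 cells and 11.7% in scramble cells, so nothing is read from these counts about the list. UBASH3B, a phosphatase that opposes CBL, had the largest change of those called (1.18 ± 0.15 in shLAD1 cells and 1.12 ± 0.15 in scramble cells). HGS, which sorts ubiquitinated receptors on endosomes, rose by 0.38 ± 0.10 in shLAD1 cells and 0.47 ± 0.10 in scramble cells. SH3KBP1, which links CBL to endophilins, rose in shLAD1 cells (0.35 ± 0.09). EPS15 (0.24 ± 0.07) and EPN2 (0.63 ± 0.19), clathrin adaptors, rose in scramble cells. The count is not stable: with the replicate block 6 were higher in shLAD1 cells and 10 in scramble cells, and with total-count scaling 1 was higher and 2 lower in shLAD1 cells and 2 higher and 1 lower in scramble cells.

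Of 8 phosphatases, kinases and ligases that act on EGFR or its relatives, none was called at 40 min. At 240 min 2 were higher and 1 lower in shLAD1 cells, where 10.8% of all genes were higher and 7.76% lower, and 3 were higher and 1 lower in scramble cells, where 11.7% were higher and 8.44% lower. PTPN6, the phosphatase SHP-1, fell by 0.62 ± 0.08 on the log2 scale in shLAD1 cells and by 0.58 ± 0.08 in scramble cells. PTPN1, the phosphatase PTP1B, rose by 0.35 ± 0.06 in shLAD1 cells and 0.28 ± 0.06 in scramble cells. TNK2, the kinase ACK1, rose by 0.55 ± 0.14 in shLAD1 cells and 0.52 ± 0.14 in scramble cells. PTPRJ, a receptor-type phosphatase, rose by 0.43 ± 0.09 in scramble cells. Total-count scaling left 1 higher and 1 lower in each kind of cell.

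Of the EGFR family's receptors and ligands 10 of 11 were tested. Of these, 3 were higher at 40 min in shLAD1 cells, against 1.04% of all genes called, and 1 in scramble cells, against 0.853%. HBEGF, an EGFR ligand, led in both, with 3.05 ± 0.21 in shLAD1 cells and 2.77 ± 0.21 in scramble cells. At 240 min 5 were higher and 2 lower in shLAD1 cells, against 10.8% and 7.76% of all genes. In scramble cells 4 were higher and 2 lower, against 11.7% and 8.44%. The ligand AREG stood at 3.68 ± 0.41 in shLAD1 cells and 3.35 ± 0.41 in scramble cells. Among the receptors, ERBB2 fell by 0.50 ± 0.07 in shLAD1 cells and by 0.58 ± 0.07 in scramble cells, and ERBB3 fell by 0.87 ± 0.12 in shLAD1 cells and by 0.75 ± 0.12 in scramble cells.

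Feedback inhibitors that act below the receptor were read beside the members. Of 15 tested, 7 were higher at 40 min in shLAD1 cells, against 1.04% of all genes called, and 7 in scramble cells, against 0.853%. None was lower. At 240 min 10 were higher in shLAD1 cells, against 10.8% of all genes, and 11 in scramble cells, against 11.7%. The median of these inhibitors at 40 min was 1.32 on the log2 scale in shLAD1 cells, where that of the 9 members was 0.19. In scramble cells it was 1.34, where that of the members was 0.11. DUSP5, a phosphatase of ERK in the nucleus, led at 40 min, with 3.64 ± 0.15 in shLAD1 cells and 3.40 ± 0.15 in scramble cells. At 240 min DUSP6, a phosphatase of ERK in the cytoplasm, stood at 3.64 ± 0.40 in shLAD1 cells and 3.58 ± 0.40 in scramble cells. On leaving out single libraries the 40 min count ran from 4 to 7 in shLAD1 cells and from 2 to 7 in scramble cells.

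When shLAD1 cells were set against scramble cells over all 3 times, with the 12 libraries as separate samples, 18.6% of all genes were called. Of the 13950 genes 1290 were higher in shLAD1 cells and 1298 lower. In that fit 5 of the 15 inhibitors below the receptor were higher in shLAD1 cells (DUSP4 1.16 ± 0.24, DUSP10 0.76 ± 0.13, DUSP2 0.66 ± 0.13 and DUSP7 0.40 ± 0.07 among them), as were 4 of the 10 receptors and ligands (EPGN 1.16 ± 0.32, EREG 0.89 ± 0.21, HBEGF 0.60 ± 0.12 and TGFA 0.19 ± 0.05). In the endocytic list 2 were higher (EPN3 0.17 ± 0.04 and SH3KBP1 0.17 ± 0.05) and 1 lower (UBASH3B −0.32 ± 0.08). Among the phosphatases PTPN6 was higher (0.20 ± 0.05) and PTPN2 lower (−0.23 ± 0.07), and among the relatives SOCS6 was lower (−0.23 ± 0.06). These last 3 counts, 3 of 23, 2 of 8 and 1 of 9, are near the share of all genes. With each of the 4 sets of libraries reduced to 1 mean, limma called 0 of the 13950 genes (1798 had an unadjusted p under 0.05), so that fit tells nothing about the lists.

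The genes whose pattern over the 12 libraries was most like each member's were found by Pearson's r of log2(normalized count + 1) among the 13950 genes. The libraries fall into 6 groups and 3 times and are not independent points, so r is given as a description. ERRFI1 was closest to SRF (r = 0.981), MAFF (0.980) and TRAF4 (0.978). PHLDA1 was closest to ZNF598 (0.988), ETF1 (0.985) and AKIRIN2 (0.977), and LRIG1 to FAM168A (0.992), CKAP2 (0.991) and CENPE (0.984). The least close neighbours were those of LRIG3, with ZZZ3 at 0.877, CNN2 at 0.855 and PFKFB3 at 0.847. CBL was closest to MGRN1 (0.977), STRN (0.966) and AP1S3 (0.960). CBLB was closest to AVPI1 (0.980), SLC33A1 (0.975) and STX19 (0.974), and CBLC to NOC2L (0.979), RNF4 (0.971) and DCUN1D5 (0.968). SOCS5 was closest to ZNF207 (0.971), PDZD8 (0.956) and CELF1 (0.950), and SOCS4 to RIOK3 (0.949), UGCG (0.942) and ATXN1L (0.941). None of the 3 nearest genes of any member was another member.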

How the data were processed

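RNA of 12 libraries was analysed. The authors aligned reads with STAR to hg19 and used DESeq2, per the submitters' processing notes. Not given in the sources used here are versions, the read counter, its annotation and its use of strand. The deposited signal columns are reads per gene over each library's size factor. Divided by the value of 1 read they gave whole reads, within 0.001, for 100% of the values. A mean signal, a log2 fold change, its standard error, a Wald score and p-values of an unnamed contrast stand beside them in the authors' table.

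The design set edgeR for raw counts as deposited. Because the values are normalized, the main test was limma-trend (robust, limma 3.58.1, R 4.3.3) of log2(normalized count + 1), which understates changes of low genes. It fitted a mean per group to all 12 libraries for the 13950 of 26365 genes (20013 had reads) that reached 10 normalized counts in 2 or more libraries. In each of 12 comparisons a gene was called when its Benjamini-Hochberg adjusted p was under 0.05. edgeR 4.0.16 (quasi-likelihood) and DESeq2 1.42.0 on the recovered reads, other pseudocounts, filters and scalings, blocks, the compared groups alone and leaving out each library were alternatives. The scripts were tested on simulated data.

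The members and the gene lists were chosen with earlier results of these data known. Named genes were all members, LAD1, EGFR, up to 4 called genes per list and comparison by smallest adjusted p, and the 3 genes most like each member.

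Whether numbers 1 and 2 mark separate cultures is not said in the labels, so p-values measure only how far these samples spread, possibly for technical reasons. The numbers pair the samples: deviations of same-numbered libraries from their groups' means correlated by 0.645 to 0.734 between groups of 1 shRNA (6 pairs) and by 0.247 to 0.307 across shRNAs (9 pairs). Replicates differed beyond counting noise (chi-square per degree of freedom 9.04 to 22.6), and no library was counted as a duplicate. The EGF comparisons of a kind of cell share its 0 min libraries.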

Additional observations from a re-analysis of the deposited data

Results flagged for a closer look

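Between 40 and 240 min the SOCS4 values of both shLAD1 sets of libraries went down, by 0.02 and 0.05 on the log2 scale, and those of both scramble sets went up, by 0.08 in each. Neither change passed the limma test (−0.04 ± 0.08, adjusted p = 0.827, in shLAD1 cells and 0.08 ± 0.08, adjusted p = 0.552, in scramble cells), and under the alternatives both changed sign (−0.10 to 0.02 in shLAD1 cells and −0.01 to 0.12 in scramble cells). The mean change in shLAD1 cells minus that in scramble cells was −0.12 on the log2 scale, and the difference was not tested.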

How the results depend on the processing

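No member's called change turned round under any alternative. Of 2448 values of the 9 members under the alternatives, 2343 kept their side of the threshold, 27 passed it newly and 78 no longer passed it; 66 of the uncalled values changed sign. The numbers of members called at 40 min were 1 in each kind of cell: DESeq2 gave 2 in shLAD1 cells and 2 in scramble cells, the replicate block within each shRNA 3 and 2, and the compared groups alone 2 in scramble cells. Of all 13950 genes DESeq2 called 212 in shLAD1 cells and 173 in scramble cells, and that block 666 and 530. The compared groups alone called 95 of 13430 genes in scramble cells. At 240 against 0 min in shLAD1 cells the block within each shRNA gave 8, where it called 6450 of the 13950 genes. The compared groups alone gave 2 there, with 313 of 13372 genes called. In scramble cells that block gave 9, with 6715 genes called, and the replicate block 8, with 4557 genes called. At 240 against 40 min in shLAD1 cells the compared groups alone gave 0, with 164 of 13351 genes called. Between the cells, the compared groups alone gave 0 members at 0 min, 0 at 40 min and 0 at 240 min, the replicate block 2 at 240 min and 2 on average, and 1 mean per set of libraries, added after seeing the data, 0 on average. Over all genes the compared groups alone called 1 at each time, and the replicate block called 1462 of 13950 at 240 min and 5034 on average. On leaving out each library the number called in shLAD1 and scramble cells ran from 1 to 2 and from 1 to 2 at 40 min, from 4 to 5 and from 5 to 7 at 240 min, and from 2 to 5 and from 2 to 6 between 240 and 40 min; between the cells it ran from 0 to 1 at each time and from 1 to 2 on average, and it was 0 throughout for the differences of the responses. Beside the values given with the results, the replicate block changed no other call of a member. Total-count scaling moved the median of all genes at 240 min to −0.13 in shLAD1 cells and −0.14 in scramble cells. With it or upper-quartile scaling SOCS5 was no longer called in scramble cells. Total-count scaling, DESeq2 and no filter on low values each called 4 members at 240 against 40 min in shLAD1 cells, in place of 5. Replicates differed by more than counting error, so 2 libraries per group limit the precision beyond read depth.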
